A study of Aspergillus luchuensis with 9 samples.

Results

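Histone lysine methyltransferases transfer methyl groups from S-adenosylmethionine to lysines of the histones around which DNA is wound, and each enzyme is known for one site. Methylated lysine 9 of histone H3 is the mark that heterochromatin protein 1 binds, and HepA is the Aspergillus member of that protein family. Most of these enzymes carry a SET domain, and Dot1 is known in Saccharomyces cerevisiae as an enzyme without one. The genes were taken by locus tag and are named by their RefSeq symbols: clrD (AKAW2_30689A), set1 (AKAW2_30966A), set2 (AKAW2_70806S), SET9 (AKAW2_60797A) and dot1 (AKAW2_40325A). They are 5 of the 12941 genes in the table, and all 5 passed the filter on low values that left 10009 genes for testing. The identity of each gene rests on its RefSeq symbol, and no protein sequence was used here.

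The strains were a hepA deletion strain (ΔhepA), a laeA deletion strain (ΔlaeA) and a control, each with 3 poly(A)-enriched RNA-seq libraries. All are strains of the white koji mould, Aspergillus luchuensis mut. kawachii. LaeA is a nuclear protein that controls secondary metabolism in Aspergillus, and in Aspergillus nidulans both ClrD and HepA are known to repress secondary metabolite clusters. The labels give neither the parent genotype of the control, nor the culture conditions and age, nor whether replicates were separate cultures, and the p-values below therefore cover library-to-library spread alone. Levels are FPKM, fragments per kilobase of transcript scaled by the mapped total of the library, so levels of different genes can be set side by side per length. Deviations in some libraries varied with gene length, as given below, which limits such comparisons there.

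Libraries of 1 strain were not alike. A principal component analysis of log2(FPKM + 1) placed 3 of them apart on its leading axis (39.1% of the variance), with scores of 28.8 for ΔhepA replicate 2, 53.6 for ΔlaeA replicate 2 and 72.8 for ΔlaeA replicate 3, while the other 6 scored -46.4 to -9.8. Mitochondrial transcripts made up 2.85%, 3.04% and 7% of all FPKM in those 3, compared with 1.09% to 1.66% in the rest. Relative to control replicate 3, the sequencing depth read from the smallest steps of low FPKM values was 0.66 in ΔlaeA replicate 2 and 0.52 in ΔlaeA replicate 3, and 0.842 to 1.04 in the others. Each difference of the 5 genes is therefore given with the single libraries, and with its value without these 3.

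The 5 genes were all expressed at low or middling levels. In the controls set2 averaged 17.7 ± 3.45 FPKM (SD, n = 3), set1 15.6 ± 2.13 FPKM and dot1 14.7 ± 0.874 FPKM, and the libraries of these 3 genes overlapped. clrD averaged 6.2 ± 2.49 FPKM in the controls and lay below dot1 in each of them. SET9 was the lowest at 3.52 ± 0.219 FPKM, and its highest control value (3.77 FPKM) was below the lowest of clrD (4.37 FPKM). Among the 10009 tested genes the percentile rank of clrD lay between 20.7 and 36.2 over the 9 libraries, and that of SET9 between 5.3 and 21.4. The ranks of set1 ran from 35.1 to 50.9, those of set2 from 28.3 to 51.5 and those of dot1 from 25.1 to 48.4. In bulk RNA, fewer cells expressing a gene and less of its RNA per cell cannot be told apart.

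**Figure D1:**
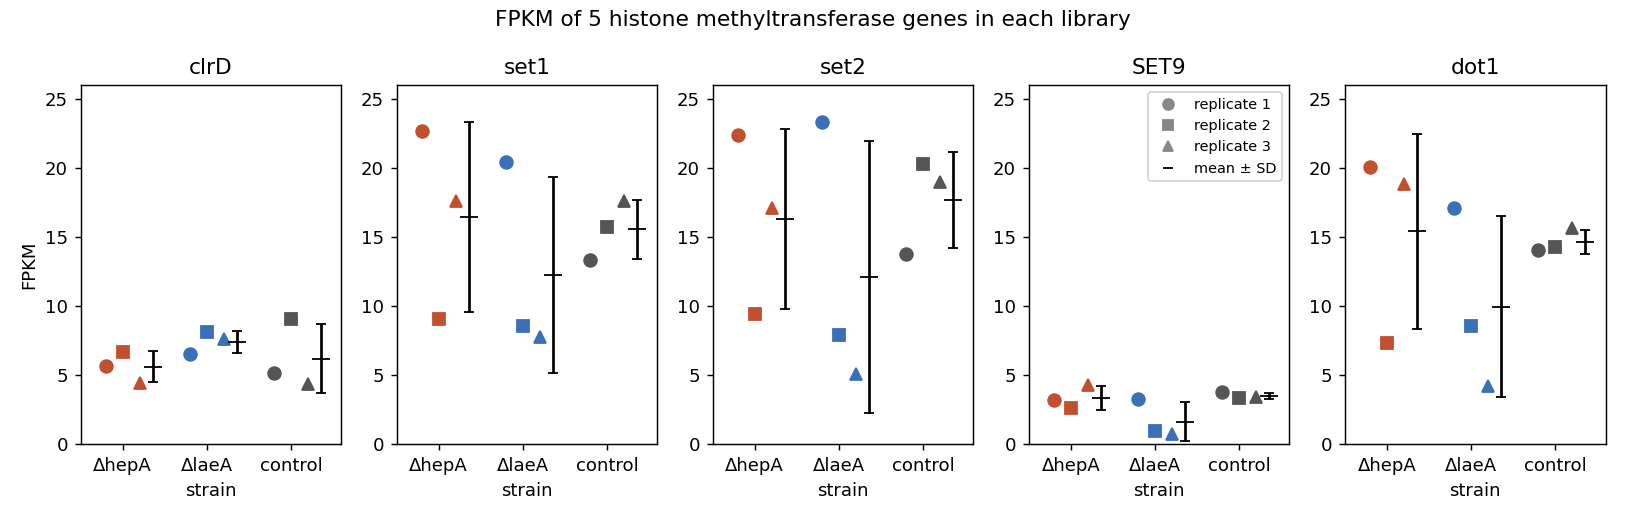
FPKM (linear axis from 0) of each of the 5 genes in the ΔhepA, ΔlaeA and control libraries. Symbols mark the replicate number, and the bar beside each strain is the mean ± SD of 3 libraries; set1, set2 and dot1 sit at 4.23 to 9.43 FPKM in ΔhepA replicate 2 and ΔlaeA replicates 2 and 3, and at 13.3 FPKM or more in all other libraries.

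clrD encodes the homologue of Clr4 of Schizosaccharomyces pombe, the methyltransferase of histone H3 lysine 9, and lies on the minus strand of chromosome 3 at 2024429 to 2026542. It stood at 5.66, 6.68 and 4.46 FPKM in ΔhepA replicates 1 to 3, at 6.55, 8.09 and 7.65 FPKM in ΔlaeA replicates 1 to 3, and at 5.19, 9.04 and 4.37 FPKM in the controls. All 6 deletion libraries lay between the lowest and the highest control, a pattern that 4.59% of all tested genes had. The largest spread of clrD was among the controls, where replicate 2 stood apart from the other two. clrD was the only one of the 5 genes that was not lowest in one of the 3 libraries that lay apart.

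set1 encodes the catalytic subunit of COMPASS, the complex that methylates histone H3 lysine 4 in Saccharomyces cerevisiae, and lies on the minus strand of chromosome 3 at 2915152 to 2918931. It stood at 22.7, 9.04 and 17.6 FPKM in ΔhepA, at 20.4, 8.56 and 7.77 FPKM in ΔlaeA, and at 13.3, 15.8 and 17.6 FPKM in the controls. ΔhepA replicate 2 and ΔlaeA replicates 2 and 3 were below every control, and the other 3 deletion libraries were above every control, ΔhepA replicate 3 by only 0.01 FPKM.

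set2 encodes the methyltransferase of histone H3 lysine 36, which in Saccharomyces cerevisiae travels with elongating RNA polymerase II, and lies on the plus strand of chromosome 7 at 2419321 to 2422658. It stood at 22.4, 9.43 and 17.1 FPKM in ΔhepA, at 23.4, 7.89 and 5.09 FPKM in ΔlaeA, and at 13.8, 20.3 and 19.0 FPKM in the controls. The same 3 libraries were below every control, while replicate 1 of either deletion strain was above every control.

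dot1 encodes the methyltransferase of histone H3 lysine 79 and lies on the minus strand of chromosome 4 at 871090 to 872595. It stood at 20.1, 7.3 and 18.8 FPKM in ΔhepA, at 17.1, 8.55 and 4.23 FPKM in ΔlaeA, and at 14.1, 14.2 and 15.7 FPKM in the controls. The controls lay close together, and the deletion libraries fell on both sides of them: 3 below and 3 above.

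SET9 is named after the methyltransferase of histone H4 lysine 20 in Schizosaccharomyces pombe and lies on the minus strand of chromosome 6 at 2405743 to 2407593. It stood at 3.21, 2.6 and 4.28 FPKM in ΔhepA, at 3.27, 0.94 and 0.71 FPKM in ΔlaeA, and at 3.77, 3.35 and 3.45 FPKM in the controls. All 3 ΔlaeA libraries were below all 3 controls, replicate 1 by a narrow margin and replicates 2 and 3 by a wide one. Of all tested genes, 14.5% were lower in ΔlaeA with no overlap between the libraries. The 2 lowest values came from the 2 libraries of least depth, and how precisely low genes were measured there was not tested.

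In ΔhepA against the control, none of the 5 genes passed the test, where 0.32% of the 10009 tested genes did (limma on log2(FPKM + 1), Benjamini-Hochberg adjusted p under 0.05 over all tested genes). At an unadjusted p under 0.05 it was also 0 of 5, against 10.4% of all tested genes. clrD, whose histone mark is the one bound by the deleted HepA, averaged 5.6 ± 1.11 FPKM in ΔhepA and 6.2 ± 2.49 FPKM in the control (SD, n = 3 each). Its difference on the log2(FPKM + 1) scale was -0.09 ± 0.34 (SE; 95% interval -0.83 to 0.66, adjusted p = 0.956). The interval does not show equal expression: it holds changes of either sign.

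The other 4 genes had differences close to the median of all tested genes in ΔhepA, which was -0.15. The difference of set1 was -0.0053 (95% interval -0.95 to 0.94, limma adjusted p = 0.997), with 16.4 ± 6.88 FPKM in ΔhepA and 15.6 ± 2.13 FPKM in the control. That of dot1 was -0.05 (-1.12 to 1.03, adjusted p = 0.984), with 15.4 ± 7.04 FPKM in ΔhepA and 14.7 ± 0.874 FPKM in the control. set2 differed by -0.17 (-1.27 to 0.94, adjusted p = 0.933) and SET9 by -0.07 (-0.94 to 0.80, adjusted p = 0.972). For set1, set2 and dot1 the SD within ΔhepA in FPKM was larger than the difference between the strain means in FPKM. Replicate 2 was low, and replicates 1 and 3 were above every control, except that replicate 3 of set2 lay within the range of the controls. Without the 3 libraries that lay apart the differences were 0.35 for set1, 0.16 for set2, 0.061 for SET9, 0.39 for dot1 and -0.20 for clrD, and none passed the test (adjusted p = 0.516 to 0.947).

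**Figure D2:**
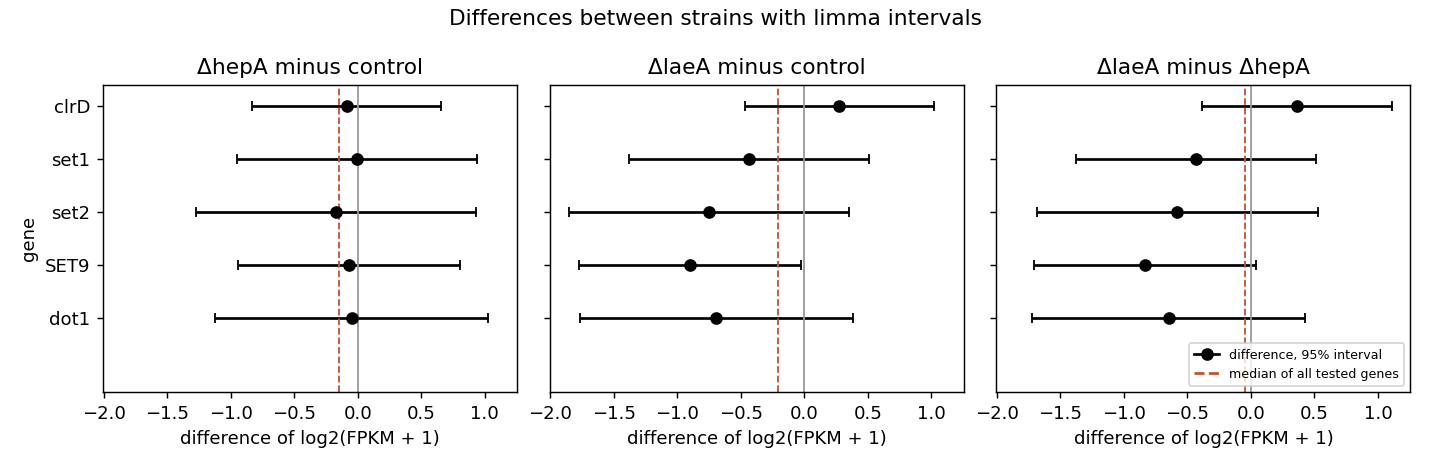
Differences of log2(FPKM + 1) between strains for the 5 genes, with limma's 95% intervals over 3 libraries per strain; the dashed line is the median of all 10009 tested genes in that comparison. Only the interval of SET9 in ΔlaeA minus control (-1.77 to -0.028) leaves out 0, and none of the 15 differences passed the adjusted threshold.

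In ΔlaeA against the control, again 0 of the 5 genes passed the test, where 1.09% of all tested genes did, and the median difference of all tested genes was -0.21. SET9 came nearest. It averaged 1.64 ± 1.42 FPKM in ΔlaeA and 3.52 ± 0.219 FPKM in the control (SD, n = 3 each), a difference of -0.90 ± 0.40 on the log2 scale (SE; 95% interval -1.77 to -0.028). Its limma p was 0.0442 before adjustment and 0.221 after it, and 21.6% of all tested genes had an unadjusted p under 0.05. With the 3 libraries that lay apart removed, ΔlaeA has 1 library, whose spread is assumed to be that of the other strains, and the difference of SET9 was -0.082 (adjusted p = 0.951).

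set2 averaged 12.1 ± 9.83 FPKM in ΔlaeA and 17.7 ± 3.45 FPKM in the control, a difference of -0.75 (95% interval -1.86 to 0.35, limma adjusted p = 0.386). dot1 averaged 9.96 ± 6.54 FPKM in ΔlaeA and 14.7 ± 0.874 FPKM in the control (-0.69, interval -1.77 to 0.38, adjusted p = 0.407). set1 averaged 12.3 ± 7.09 FPKM in ΔlaeA and 15.6 ± 2.13 FPKM in the control (-0.44, interval -1.38 to 0.51, adjusted p = 0.553). These 3 negative values came from replicates 2 and 3, because replicate 1 of ΔlaeA was above every control for each gene. Without the 3 libraries that lay apart the differences had the opposite sign, 0.40 for set2, 0.21 for dot1 and 0.38 for set1. Without ΔlaeA replicate 1, set2 (-1.33, adjusted p = 0.048) and SET9 (-1.31, adjusted p = 0.0315) passed the test, in a fit that called 1612 genes and kept only the 2 ΔlaeA libraries that lay apart.

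clrD was the one gene of the 5 with a positive difference in ΔlaeA. It averaged 7.43 ± 0.793 FPKM in ΔlaeA and 6.2 ± 2.49 FPKM in the control, a difference of 0.28 ± 0.34 (SE; 95% interval -0.47 to 1.02, limma adjusted p = 0.644), which is 0.49 above the median of all tested genes. The libraries of the strains overlapped, as control replicate 2 was higher than any ΔlaeA library. With the 3 libraries that lay apart removed the difference of clrD was 0.12 (adjusted p = 0.938).

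Set directly against each other, ΔlaeA and ΔhepA differed in 0 of the 5 genes, where 0.05% of all tested genes passed the test. The difference, ΔlaeA minus ΔhepA, was 0.36 for clrD (95% interval -0.38 to 1.11, limma adjusted p = 0.745), and ΔhepA replicates 1 and 3 lay below all 3 ΔlaeA libraries while replicate 2 did not. It was -0.83 for SET9 (-1.71 to 0.041, adjusted p = 0.543), -0.65 for dot1 (-1.72 to 0.43, adjusted p = 0.687), -0.58 for set2 (-1.69 to 0.52, adjusted p = 0.728) and -0.43 for set1 (-1.38 to 0.51, adjusted p = 0.76). At an unadjusted p under 0.05 it was also 0 of 5, against 9.49% of all tested genes. With the 3 libraries removed the differences were 0.32 for clrD, 0.24 for set2, 0.030 for set1, -0.14 for SET9 and -0.18 for dot1.

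A contrast shared by set1, set2 and dot1 ran between libraries of the same strain. Relative to its own mean over the 9 libraries on the log2 scale, set1 lay at -0.57, -0.64 and -0.76 in ΔhepA replicate 2 and ΔlaeA replicates 2 and 3. set2 lay at -0.52, -0.75 and -1.29 in these 3 libraries, and dot1 at -0.67, -0.46 and -1.33. The median of all tested genes there was -0.26, -0.12 and -0.29, so the 3 genes lay further down than the median gene in each of the 3. clrD lay at 0.08, 0.33 and 0.25, above the median gene in each. SET9 followed set1, set2 and dot1 in the ΔlaeA libraries (-0.90 and -1.08) but was at its own mean in ΔhepA replicate 2. Its 2.6 FPKM there was still below every control (3.35 to 3.77 FPKM), so SET9 too was below every control in all 3 libraries. It was also below every control in replicate 1 of either deletion strain.

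**Figure D3:**
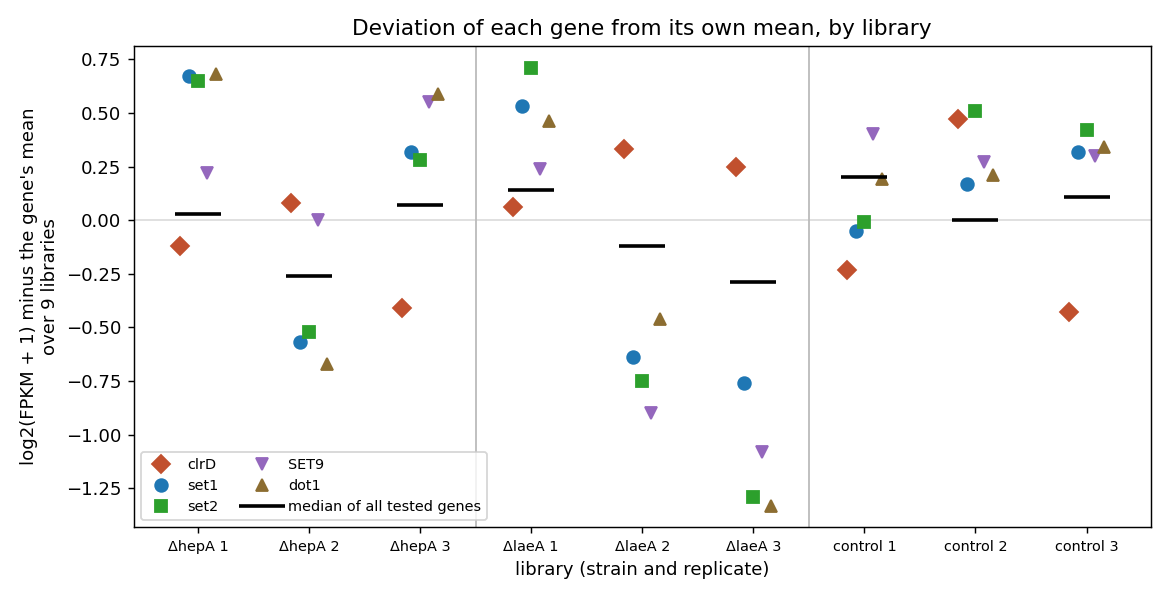
Deviation of log2(FPKM + 1) from the gene's own mean over 9 libraries, for each of the 5 genes in each library; black bars mark the median deviation of all 10009 tested genes. set1, set2 and dot1 move together and are lowest in ΔhepA 2, ΔlaeA 2 and ΔlaeA 3, where clrD lies between 0.08 and 0.33.

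Being below every control in these 3 libraries was common: 30.5% of the 10009 tested genes were. The share was 44.8% among the longest 25% of tested genes and 16.4% among the shortest 25%, by the length column of the table, which gives the genomic span. set1 (3780 bases), set2 (3338 bases) and clrD (2114 bases) belong to the longest 25%, which starts at 1956 bases; SET9 (1851 bases) and dot1 (1506 bases) are shorter than that and longer than the median of 1365 bases. In the longest 25% the median deviation was -0.32, -0.26 and -0.41 in the 3 libraries, against -0.20, 0.09 and -0.13 in the shortest 25%. The part of depth, mitochondrial share and gene length in the low values of set1, set2, SET9 and dot1 was not tested.

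Because the values of a library share one scaling, ratios within a library show the same contrast free of it. clrD stood at 0.25, 0.739 and 0.253 of the level of set1 in ΔhepA replicates 1 to 3, at 0.321, 0.945 and 0.985 in ΔlaeA, and at 0.389, 0.574 and 0.248 in the controls. The 3 highest ratios were those of the 3 libraries that lay apart, and control replicate 2 came next. Against dot1 the ratio of clrD was 0.282, 0.915 and 0.237 in ΔhepA, 0.383, 0.946 and 1.81 in ΔlaeA, and 0.369, 0.635 and 0.279 in the controls. By contrast, set1 stood at 0.776 to 1.09 of the level of set2 in 8 libraries and at 1.53 in ΔlaeA replicate 3. These ratios show that clrD and the other enzymes changed unequally between libraries, and they do not show which of them changed. Nor are the ratios free of the deviations that varied with gene length.

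**Figure D4:**
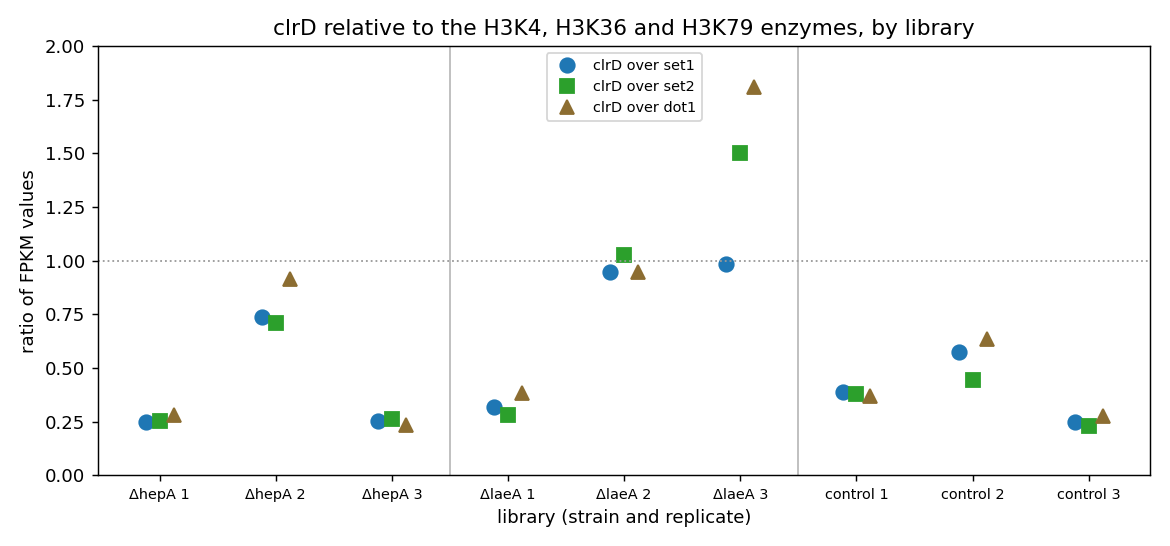
Ratio of the FPKM of clrD to that of set1, set2 and dot1 in each library (linear axis from 0; dotted line at a ratio of 1). The ratios lie at 0.708 or more in ΔhepA 2, ΔlaeA 2 and ΔlaeA 3, and at 0.635 or less in the other 6 libraries.

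Of the summed FPKM of the 5 genes, clrD made up 7.65%, 19.1% and 7.16% in ΔhepA, 9.27%, 23.8% and 30.1% in ΔlaeA, and 10.4%, 14.4% and 7.28% in the controls. The summed level itself was 74.0, 35.1 and 62.3 FPKM in ΔhepA, 70.7, 34.0 and 25.5 FPKM in ΔlaeA, and 50.1, 62.7 and 60.0 FPKM in the controls.

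The genes most like each of the 5 over the 9 libraries were sought among the other 2163 tested genes with a symbol, by Pearson's r of log2(FPKM + 1). These values are a description. The points share the 3 libraries that lay apart, which any 2 genes low in them will follow. set1 was closest to rsm25, named after a mitochondrial ribosomal protein (r = 0.994, Spearman's rho = 1), TOP1, the DNA topoisomerase I gene (r = 0.983, rho = 1), and PUF3, named after an mRNA-binding protein (r = 0.974, rho = 0.9). set2 was closest to prp8, a core spliceosome gene (r = 0.994, rho = 0.95), CDC4_3 (r = 0.989) and MRPS5 (r = 0.988). dot1 was closest to ARO2, the chorismate synthase gene (r = 0.993, rho = 0.933), PKH3 (r = 0.987) and the chitin synthase gene chsE (r = 0.984).

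SET9 was closest to the septin gene aspB (r = 0.979, rho = 0.767), ACL1 (r = 0.975) and ILV2, the acetolactate synthase gene (r = 0.968). No gene with a symbol came as close to clrD. The nearest was KU80, a subunit gene of the Ku heterodimer of DNA end joining (r = 0.827, rho = 0.817), followed by PPN1 (r = 0.775) and cdc42 (r = 0.733). KU80 stood at 152, 117 and 107 FPKM in ΔhepA, at 107, 178 and 167 FPKM in ΔlaeA, and at 117, 241 and 100.2 FPKM in the controls. Like clrD, it was highest in control replicate 2.

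The nearest annotated genes on either side were examined for each of the 5. Beside dot1, AKAW2_40324S on the plus strand (chromosome 4, 868339 to 869975, 1114 bases away) stood at 29.9, 11.7 and 12.7 FPKM in ΔhepA, at 13.0, 7.39 and 9.07 FPKM in ΔlaeA, and at 136, 86.7 and 44.1 FPKM in the controls. All 6 deletion libraries were below all controls. Of all tested genes, 14.2% were so in ΔhepA and 14.5% in ΔlaeA, each strain taken alone. The share that was so in both strains was not counted. It fell in ΔlaeA (log2 difference -2.95 ± 0.47 SE, limma adjusted p = 0.0163) and had a difference of -2.22 in ΔhepA (adjusted p = 0.095); these comparisons share the controls. The call in ΔlaeA was lost without ΔlaeA replicate 2 (adjusted p = 0.0919), without control replicate 1 (0.0712) and when the 3 libraries that lay apart were removed (0.301). dot1 itself was at -0.69 and -0.05 in these comparisons, and the gene on its other side, AKAW2_40326S, at -0.28 and -0.06.

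With all 9 libraries no other tested neighbour passed in any of the 3 comparisons; AKAW2_70805S beside set2 was under the filter and not tested. Both kin1 and AKAW2_30965S passed in ΔlaeA without ΔlaeA replicate 1, in the fit that called 1612 genes. kin1, 1781 bases from clrD and on the same strand, stood at 17.1, 7.05 and 17.4 FPKM in ΔhepA, at 18.9, 7.32 and 6.34 FPKM in ΔlaeA, and at 23.9, 19.3 and 22.4 FPKM in the controls. Unlike clrD, kin1 was low in the 3 libraries that lay apart. AKAW2_30688S on the other side of clrD had 550, 878 and 244 FPKM in the ΔlaeA libraries, and 224 to 294 FPKM in the controls (log2 difference 0.91, limma adjusted p = 0.216). No neighbour overlapped its histone methyltransferase gene, and the smallest gap was 519 bases, between AKAW2_30965S and set1.

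Of the other COMPASS subunits, 4 of the searched symbols were found and tested, and with all 9 libraries 0 passed the test in any comparison. Their median log2 difference was -0.36 in ΔhepA, against -0.15 for all tested genes, and -0.82 in ΔlaeA, against -0.21. In ΔlaeA the 4 differences ran from -2.43 to 1.55, 3 of them negative, and the lowest limma adjusted p was 0.12. SWD3, a WD-repeat subunit, was the exception in direction. It stood at 129, 197 and 132 FPKM in ΔhepA, at 97.6, 376 and 445 FPKM in ΔlaeA, and at 65.6, 102 and 95.7 FPKM in the controls (ΔlaeA log2 difference 1.55, limma adjusted p = 0.129). It passed the test in ΔlaeA, against the control and against ΔhepA, only without ΔlaeA replicate 1, where 1612 and 269 of all genes were called. SWD3 was thus highest in the 3 libraries in which set1 was lowest. SWD1 averaged 65.0 ± 17.7 FPKM in ΔlaeA and 74.1 ± 2.95 FPKM in the control (-0.22, adjusted p = 0.711).

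Among the partners of clrD in lysine 9 methylation, the only symbol found was SWI6, which names heterochromatin protein 1 in Schizosaccharomyces pombe but a cell cycle transcription factor in Saccharomyces cerevisiae; the symbol alone does not tell which is meant. It stood at 4.24, 1.99 and 4.9 FPKM in ΔhepA, at 4.47, 2.36 and 0.79 FPKM in ΔlaeA, and at 7.81, 6.53 and 7.02 FPKM in the controls. All 6 deletion libraries were below all controls. Each strain taken alone, this was the case in ΔhepA for 14.2% and in ΔlaeA for 14.5% of all tested genes. The share for both strains at once was not counted. Neither difference passed the test (-0.84, limma adjusted p = 0.539 in ΔhepA, and -1.34, adjusted p = 0.136 in ΔlaeA). In ΔlaeA SWI6 passed without ΔlaeA replicate 1, in the fit that called 1612 genes. Which of the genes are hepA and laeA was not settled here, so neither deletion could be checked by its own transcript.

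Of 9 genes linked to set2, encoding RNA polymerase II subunits, its tail kinase, the elongation factor Spt6 and the Rpd3 deacetylase complex, 0 passed the test. Their median difference was -0.31 in ΔhepA and -0.70 in ΔlaeA. rpdA, the class I histone deacetylase gene, averaged 215 ± 54.4 FPKM in ΔhepA, 201 ± 38.1 FPKM in ΔlaeA and 307 ± 57.7 FPKM in the control (ΔhepA -0.53, limma adjusted p = 0.539; ΔlaeA -0.61, adjusted p = 0.233). CTK2, a subunit gene of the kinase, averaged 27.1 ± 6.50 FPKM in ΔhepA, 24.6 ± 14.8 FPKM in ΔlaeA and 38.3 ± 9.16 FPKM in the control. In ΔlaeA it passed without ΔlaeA replicate 1, in the fit that called 1612 genes.

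Ubiquitin on histone H2B is needed for full methylation by Set1 and Dot1 in Saccharomyces cerevisiae. Of 3 genes of that step and of the polymerase-associated factors found, 0 passed the test, with medians of -0.06 in ΔhepA and -0.50 in ΔlaeA. BRE1, the ubiquitin ligase, stood at 64.5, 20.0 and 57.4 FPKM in ΔhepA, at 56.8, 14.0 and 11.9 FPKM in ΔlaeA, and at 46.9, 40.3 and 41.5 FPKM in the controls. It was low in the same 3 libraries as set1, set2 and dot1. BRE1 passed in ΔlaeA only without ΔlaeA replicate 1, in the fit that called 1612 genes. BUR1, a kinase gene, averaged 48.3 ± 11.3 FPKM in ΔhepA, 36.9 ± 5.46 FPKM in ΔlaeA and 52.2 ± 5.14 FPKM in the control.

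Of 6 genes of histones, the substrates of these enzymes, 0 passed the test, with medians of -0.07 in ΔhepA and 0.22 in ΔlaeA. HTA1, a histone H2A gene, stood at 1396, 1366 and 2099.7 FPKM in ΔhepA, at 2413, 1868 and 1708 FPKM in ΔlaeA, and at 1649, 1343 and 1411 FPKM in the controls, and the ΔlaeA libraries were all above the controls (0.43, limma adjusted p = 0.313), as 8.48% of all tested genes were. HHF1_1, a histone H4 gene, averaged 544 ± 125 FPKM in ΔlaeA and 517 ± 29.2 FPKM in the control (0.05, adjusted p = 0.913). The only lysine demethylase symbol found, jhd1, was near the filter at 1.88 ± 0.931 FPKM in ΔhepA, 1.48 ± 0.386 FPKM in ΔlaeA and 1.87 ± 0.636 FPKM in the control.

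Of 4 genes that supply S-adenosylmethionine or remove its product, 0 passed the test. All 4 had a positive difference in ΔhepA (median 0.24, against -0.15 for all tested genes). All 4 had a negative one in ΔlaeA (median -0.52, against -0.21 for all tested genes), and these signs were the same with median-ratio scaling. The share of all tested genes with either sign was not counted. SAH1, which hydrolyses S-adenosylhomocysteine, stood at 283, 327 and 335 FPKM in ΔhepA, at 285, 136 and 115 FPKM in ΔlaeA, and at 258, 283 and 266 FPKM in the controls. ΔlaeA minus ΔhepA was -0.93 (limma adjusted p = 0.428). MET6, a methionine synthase gene, had 499.6, 154 and 121 FPKM in the ΔlaeA libraries, and 254 to 319 FPKM in the controls, so for SAH1 and MET6 replicate 1 was above and replicates 2 and 3, both among the libraries that lay apart, below every control. These 2 genes passed in ΔlaeA, against the control and against ΔhepA, only without ΔlaeA replicate 1, where 1612 and 269 of all genes were called.

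Of 4 other methyltransferase genes found, 0 passed the test (medians -0.44 in ΔhepA and -0.81 in ΔlaeA). They are rmtA, rmt2, SKB1 and hmt1, symbols of arginine methyltransferases, although hmt1 names a transporter in Schizosaccharomyces pombe. SKB1 averaged 64.1 ± 18.0 FPKM in ΔhepA, 52.2 ± 22.9 FPKM in ΔlaeA and 82.5 ± 8.69 FPKM in the control. It passed in ΔlaeA only without ΔlaeA replicate 1, in the fit that called 1612 genes. rmt2 averaged 87.5 ± 44.1 FPKM in ΔhepA, 58.1 ± 38.1 FPKM in ΔlaeA and 96.4 ± 20.8 FPKM in the control. As a sign of the developmental state of the mycelium, 10 conidiation genes were tested, with a median difference of -0.13 in ΔhepA and -0.60 in ΔlaeA, where 3 were positive and 7 negative (-1.84 to 1.68). Of these 10, 1 passed the test in ΔlaeA, where 1.09% of all tested genes did. That gene was CON10, which rose (136 ± 31.5 FPKM in ΔlaeA and 41.7 ± 10.1 FPKM in the control, limma adjusted p = 0.0385). It did not pass without ΔlaeA replicate 2 and without any 1 control (adjusted p = 0.0788 to 0.18), with no filter on low values (0.0531), or with the 3 libraries that lay apart removed (0.21). The regulator brlA was below 4 FPKM in every library. fluG, the most abundant of the list, averaged 527 ± 153 FPKM in ΔlaeA and 352 ± 40.7 FPKM in the control, and did not pass. Both CON10 and fluG are among the 3 genes with a positive difference in ΔlaeA, so they do not stand for the 7 negative ones.

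Members of the lists were also counted below an unadjusted limma p of 0.05, where 10.4% of all tested genes stood in ΔhepA, 21.6% in ΔlaeA and 9.49% between ΔlaeA and ΔhepA. In ΔhepA it was 1 of the 10 conidiation genes and 0 in every other list. In ΔlaeA it was 3 of 4 COMPASS genes, SWI6, 1 of 9 genes linked to set2, 1 of 4 methyl donor genes, 1 of 4 other methyltransferase genes and 3 of 10 conidiation genes, and 0 of the histone, ubiquitin and demethylase genes. Between ΔlaeA and ΔhepA it was 1 of 6 histone genes, 1 of 4 methyl donor genes and 2 of 10 conidiation genes.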

How the data were processed

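Poly(A)-enriched, stranded libraries were sequenced, per the labels' protocols. FPKM values were deposited by the authors as 1 table, a column for each library. Tools listed in the submitters' processing notes are RSEM 1.3.1, STAR 2.7.9a, featureCounts 2.0.1, Trimmomatic 0.39, cutadapt 3.7, Trim Galore 0.6.7 and FastQC 0.11.9, without their roles; the build and strand setting are not given in the sources used here. FPKM is scaled by each library's mapped total, so abundant transcripts lower all other values. Read totals were not used here, and relative depth was read from the steps of low FPKM values (603 to 896 low genes per library). All 12941 locus tags matched the RefSeq table (assembly AkawachiiIFO4308_assembly01), with equal start and end in 12936, the 5 members included.

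A gene was tested if 3 or more libraries had 1 FPKM or more. log2(FPKM + 1) was fitted with limma 3.58.1 in R 4.3.3 (group means over 9 libraries, mean trend, two-sided, 6 residual degrees of freedom, Benjamini-Hochberg over 10009 genes). This scale understates changes of low genes such as SET9. The fit was tested on simulated data in which the noise of each gene was drawn independently. That test therefore does not cover the deviations that genes of a library share here. No 2 libraries were copies (at most 1.65% of genes above 0 had equal values).

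The 5 genes and the lists were chosen with earlier results of these data known. Named are the 5 genes, the called and the 2 most abundant members of each list of symbols, the 3 most alike genes and the nearest neighbours; brlA, rmtA, hmt1 and spt6 were named after their values were seen. Python 3.11.15, numpy 2.4.6, pandas 2.3.3 and matplotlib 3.10.9 were used.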

Additional observations from a re-analysis of the deposited data

How the results depend on the processing

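Of 195 refits of the 15 differences, 166 kept direction and side of the threshold, 27 changed sign and 2 passed the threshold. Sign changes came mostly in ΔhepA minus control (22 of 65), where all differences were close to 0. There, median-ratio scaling gave 0.064 for clrD, 0.16 for set1, 0.063 for SET9 and 0.11 for dot1. Quantile normalization gave 0.13 for clrD, 0.18 for set1, 0.017 for set2, 0.11 for SET9 and 0.14 for dot1. A pseudocount of 5 gave 0.0098 for set1. The changes with median-ratio scaling and quantile normalization went with the median of all genes, which was -0.15 before and 0.01 after either scaling. With a pseudocount of 5 that median was -0.1. Leaving out 1 library at a time gave -0.27 to 0.18 for clrD, -0.27 to 0.35 for set1, -0.43 to 0.16 for set2, -0.22 to 0.061 for SET9 and -0.28 to 0.39 for dot1. A refit decided on after the data had been seen dropped the 3 libraries that lay apart; its values in ΔhepA were 0.35 for set1, 0.16 for set2, 0.061 for SET9 and 0.39 for dot1. In ΔlaeA minus control they were 0.38 for set1, 0.40 for set2 and 0.21 for dot1, and in ΔlaeA minus ΔhepA 0.030 for set1 and 0.24 for set2. Leaving out 1 library at a time, ΔlaeA minus control ranged from -1.33 to -0.33 for set2 and from -1.31 to -0.65 for SET9.

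The number of genes called in ΔhepA minus control was 32 (5 higher, 27 lower). It was 11 with a pseudocount of 0.1, 13 without the filter, 6 with median-ratio scaling (0 higher, 6 lower), 13 with quantile normalization (2 higher, 11 lower), 6 with the replicate block, 7 without the 3 libraries that lay apart, and 5 to 54 without 1 library. In ΔlaeA minus control it was 109 (17 higher, 92 lower), with 48 higher and 94 lower under median-ratio scaling and 60 higher and 100 lower under quantile normalization. It was 174 with the replicate block, 9 without the 3 libraries, and 21 to 1612 without 1 library. In ΔlaeA minus ΔhepA it was 5, 1 with a pseudocount of 5, 1 with the replicate block, 0 without the 3 libraries (limma; 503 at an unadjusted p under 0.05), and 1 to 269 without 1 library. Same-numbered libraries did not deviate together in all pairs (correlations of -0.22 to 0.42), so the replicate block is only an alternative, and it changed no call of the 5 genes. SET9 lay under 1 FPKM in the 2 shallowest libraries. Of the 25 other named genes tested, 2 were called in ΔlaeA minus control, where 1.09% of all tested genes were. Without ΔlaeA replicate 1 it was 11 of the 25, in the fit that called 1612 genes. Called members of the lists were named by rule, so neither count is a result about the 25 genes as a set.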
